A study of Mus musculus with 6 samples.

Results

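The genes described here are 10 immediate-early transcription factors and response genes: Egr1, Egr2, Egr3, Nr4a1, Nr4a2, Nr4a3, Ier2, Ier3, Klf2 and Klf4. They were taken by exact symbol from the 24391 genes of the deposited count files, and all 10 were found and passed the low-count filter. Expression was measured by RNA sequencing of total RNA from tumour cells of iBIP mice, a melanoma model on a mixed FVB and B6 background, in 6 libraries. Both groups carried the same driver alleles per the labels: Tyr-CreERT2, a tamoxifen-activated Cre under the tyrosinase promoter of the pigment lineage; the activator Rosa26-rtta; the doxycycline-dependent oncogene TetO-BRAFV600E; and the floxed alleles PTENL/L and INK/ARFL/L. The mice had received doxycycline, and 4-OHT had been put on their ears to start the tumours. The KMT2D WT group (3 libraries) came from iBIP;KMT2D+/+ mice and the KMT2D KO group (3 libraries) from iBIP;KMT2DL/L mice, and the labels give no age. The names in the file headers give the libraries of each group a single shared identifier with a running number, and nothing says that they came from separate cultures or mice. The p-values below therefore set the difference between groups only against the scatter among these libraries, and that scatter may be technical. They do not extend to other tumours or mice. Genotype and the tumour from which the cells grew cannot be told apart. The labels describe a culture medium but no serum, feeding or harvest time, and their extraction text speaks of cerebellum where the other labels speak of tumour cells.

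Immediate-early genes are transcribed within minutes of a stimulus, without the need for new protein, from promoters that already hold factors such as SRF with its ternary complex partners and CREB. Growth factor signalling through RAS, RAF and ERK, the pathway that mutant BRAF drives in melanoma, is a main input, together with cyclic AMP, calcium and stress. Most of their messages are short-lived, so that their level follows recent signalling and also the handling of cells. The comparison asks how the level of these genes differed between the cells labelled KMT2D KO and KMT2D WT, where Kmt2d encodes a histone methyltransferase that acts mainly at enhancers.

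Of the 10 genes, 8 rose and 2 fell in KMT2D KO. Egr2 rose most, by 2.68 on the log2 scale (6.43-fold), followed by Ier2 (2.18) and Egr1 (1.99). Nr4a2 fell by 2.03 (4.07-fold lower) and Ier3 fell by 0.56. Genes were tested on counts with the quasi-likelihood test of edgeR over 14579 genes, with a call at an adjusted p (Benjamini-Hochberg) under 0.05, and all adjusted p values below come from edgeR. That test called 71.0% of all tested genes, 35.4% higher and 35.5% lower, so a call alone does not set these genes apart. A call with a log2 fold change above 1 was reached by 7 of the 10 genes, where the share over all tested genes was 13.9%, and a call below -1 by 1 of the 10, where it was 12.9%. The libraries of the groups did not overlap for 10 of 10 genes, beside 74.3% of all tested genes. The median log2 fold change of the 10 genes was 1.29, beside 0.004 for all tested genes. The 10 genes were chosen with earlier results of these data known, so these comparisons with all tested genes only describe them. Tested against a log2 fold change of 1 in size (glmTreat in edgeR), 5 of the 10 genes were called higher and 1 lower, beside 19.4% of all tested genes in either direction, and Egr3, Klf4, Klf2 and Ier3 were not called. In bulk RNA, a change in the share of cells that express a gene and a change in the amount per cell cannot be told apart.

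**Figure D1:**
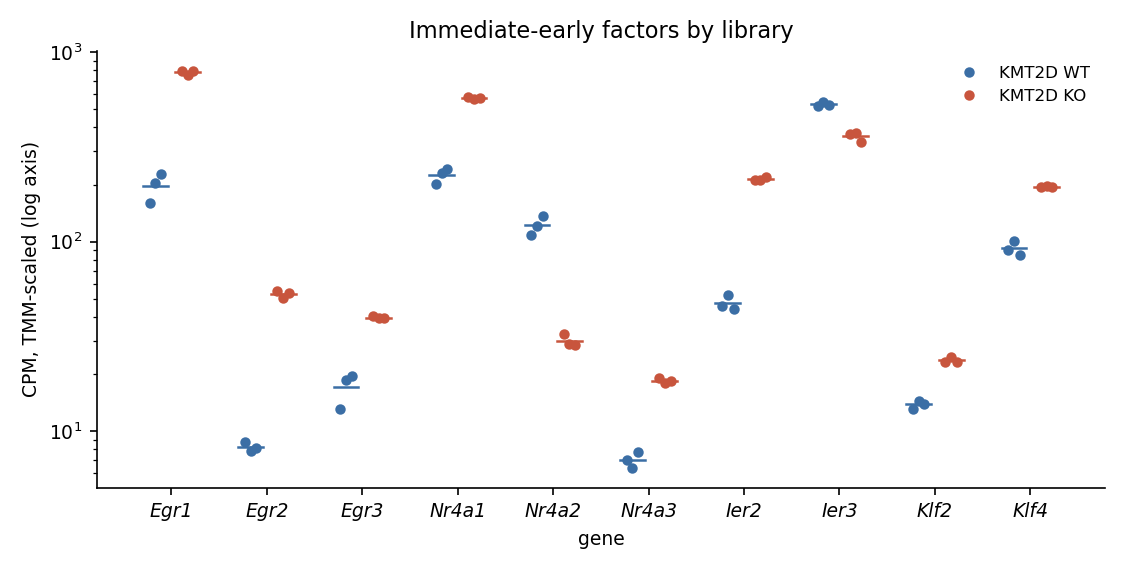
Level of each gene in each library, in TMM-scaled CPM on a log axis. Points are libraries (3 for each group) and short lines are group means. KMT2D KO lies above KMT2D WT for 8 genes and below it for Nr4a2 and Ier3, with no overlap of libraries for any of the 10.

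The KMT2D WT libraries had total counts of 43168605 to 59360068, and the KMT2D KO libraries of 55594979 to 79718782. Levels are given as CPM, the counts of a gene relative to the library total after TMM scaling, and log2 fold changes as KMT2D KO minus KMT2D WT. The 10 genes together took 0.121% to 0.136% of all counts in the KMT2D WT libraries and 0.218% to 0.224% in the KMT2D KO libraries. Their deposited counts lay between 347 (Nr4a3 in KMT2D WT replicate 3) and 61272 (Egr1 in KMT2D KO replicate 1), so none was near the detection limit. No exon of the 10 genes overlaps an exon of another gene in the files, so fragments were not lost to a neighbour. Kmt2d itself had 89.3 ± 10.6 and 74.0 ± 5.32 CPM in KMT2D WT and KMT2D KO (SD, n = 3), a log2 fold change of -0.27 (edgeR adjusted p = 0.0075) with overlapping libraries. That call was lost without KMT2D KO replicate 2 (-0.21, adjusted p = 0.058). Counts summed over the whole gene cannot tell if the floxed exons were lost.

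The EGR genes encode zinc finger proteins that bind GC-rich sites and switch on growth and differentiation programmes, and all 3 rose. Egr1, the member most widely induced by growth factors (mm9 chromosome 18, 35020861 to 35024610, plus strand), had 159, 205 and 228 CPM in the KMT2D WT libraries (always given in the order of replicates 1, 2 and 3) and 799, 758 and 797 CPM in the KMT2D KO libraries. The lowest KMT2D KO library thus lay above 3 times the highest KMT2D WT library. Mean levels of 197 ± 35.2 and 784 ± 23.2 CPM (SD, n = 3) gave a 3.98-fold rise (log2 fold change 1.99, SE 0.10, edgeR adjusted p = 9.9e-11). Egr1 rose on a chromosome whose genes lay lower as a whole, since the median of those tested on chromosome 18 was -0.50.

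Egr2, also named Krox20, is required for myelination by Schwann cells and for hindbrain patterning (chromosome 10, 67000617 to 67004936, plus strand). It had 8.76, 7.83 and 8.16 CPM in the KMT2D WT libraries and 55.0, 50.4 and 53.7 CPM in the KMT2D KO libraries. The rise from 8.25 ± 0.469 to 53.0 ± 2.34 CPM was the largest of the 10 genes in fold (log2 fold change 2.68, SE 0.08, edgeR adjusted p = 2.9e-13), and 96.0% of all tested genes had a lower log2 fold change. Egr3, a relative known from muscle spindles and lymphocytes (chromosome 14, 70477252 to 70482420, plus strand), had 12.997, 18.6 and 19.5 CPM in the KMT2D WT libraries and 40.3, 39.4 and 39.3 CPM in those of KMT2D KO. Its means were 17.03 ± 3.53 and 39.7 ± 0.564 CPM, a 2.34-fold rise (1.22, SE 0.12, adjusted p = 2.3e-07). Egr3 was the member with the widest spread in KMT2D WT, where replicate 1 lay below the others.

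A start of Egr2 is shown because the letters before it match motifs of SRF and CREB, factors known from immediate-early promoters. RefSeq lists 5 starts of Egr2 in GRCm38.p6, a newer build than the mm9 of the counts, and the 250 bases before the third of them lie at chr10:67537619-67537868 on the plus strand. Capitals mark a CArG box, the binding motif of SRF, and the CRE core TGACG or its complement CGTCA, where CRE is the cyclic AMP response element bound by CREB.

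Egr2: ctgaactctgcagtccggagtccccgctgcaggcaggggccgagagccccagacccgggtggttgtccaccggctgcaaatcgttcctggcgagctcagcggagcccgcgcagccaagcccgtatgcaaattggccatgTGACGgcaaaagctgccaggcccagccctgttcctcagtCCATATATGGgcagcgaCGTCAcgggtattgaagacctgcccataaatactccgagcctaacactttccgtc

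The CArG box lies 72 to 63 bases before that start, between TGACG cores at 111 to 107 and at 55 to 51 bases. A CArG box was found in 4 of the 5 Egr2 windows, a TGACG core in 3 of them, and a CArG box in no window of the 6 other genes that had one. The 3 Egr2 windows with a TGACG core overlap and hold the same CArG box and the same cores, so these are not separate matches. Over all 32851 RefSeq windows of that length, 1.47% held a CArG box and 17.8% a TGACG core on either strand. A match is a description of the letters and not evidence of binding.

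Among the partners of the EGR proteins, the corepressor gene Nab2 rose slightly, from 81.2 to 99.3 CPM (log2 fold change 0.29, adjusted p = 0.00025), and Nab1 fell from 168 to 108 CPM (-0.64, adjusted p = 8.7e-08). The NAB corepressors bind EGR proteins and limit their activity. Nab2 shares exonic sequence with Stat6, so its count is uncertain. The fourth EGR gene, Egr4, was nearly silent, with 1 count over the KMT2D WT libraries and 44 over the KMT2D KO libraries. The ratio was 38.0 (95% exact binomial interval 6.47 to 1533, counting error only), and this gene was named after its values were seen. Genes that Egr2 switches on in Schwann cell myelin did not all move with it. Of 5 tested, 3 rose, 1 fell and 1 gave no call (median 0.80). Over all tested genes, 35.4% were called higher and 35.5% lower. Pmp22 rose from 91.2 to 159 CPM (0.80) and Mbp from 0.901 to 2.54 CPM (1.48), while Prx fell from 8.96 to 6.72 CPM (-0.41).

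The NR4A genes encode orphan nuclear receptors that act without a known physiological ligand, binding DNA as monomers, as dimers or with RXR. They did not all move in the same direction. Nr4a1, also named Nur77 (chromosome 15, 101097277 to 101105225, plus strand), had 202, 231 and 241 CPM in the KMT2D WT libraries and 579, 567 and 572 CPM in those of KMT2D KO. It rose 2.55-fold, from 224 ± 20.3 to 573 ± 5.997 CPM (log2 fold change 1.35, SE 0.06, adjusted p = 5.6e-11). Nr4a3, also named Nor1 (chromosome 4, 48058177 to 48099318, plus strand), was scarce, with 7.06, 6.38 and 7.76 CPM in the KMT2D WT libraries and 19.1, 17.8 and 18.3 CPM in those of KMT2D KO. Its rise was of nearly the same size as that of Nr4a1 (7.07 ± 0.690 to 18.4 ± 0.636 CPM, 1.38, SE 0.10, adjusted p = 1.3e-08).

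Nr4a2, also named Nurr1 and best known from dopamine neurons (chromosome 2, 56959637 to 56976414, minus strand), went the other way. It had 109, 121 and 137 CPM in the KMT2D WT libraries and only 32.6, 28.8 and 28.4 CPM in those of KMT2D KO. The lowest KMT2D WT library was above 3 times the highest KMT2D KO library. The fall from 122 ± 14.3 to 29.9 ± 2.32 CPM was 4.07-fold (log2 fold change -2.03, SE 0.08, adjusted p = 1.7e-11), while the median over chromosome 2 was 0.27. Only 6.63% of tested genes had a lower log2 fold change than Nr4a2.

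The starts of the 3 NR4A genes are shown because genes that moved in opposite directions share the same kind of element. The windows are the 250 bases before the RefSeq start in GRCm38.p6, at chr15:101266596-101266845 (Nr4a1, plus strand), chr2:57124004-57124253 (Nr4a2, minus strand) and chr4:48045055-48045304 (Nr4a3, plus strand). Capitals mark TGACG or CGTCA.

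Nr4a1: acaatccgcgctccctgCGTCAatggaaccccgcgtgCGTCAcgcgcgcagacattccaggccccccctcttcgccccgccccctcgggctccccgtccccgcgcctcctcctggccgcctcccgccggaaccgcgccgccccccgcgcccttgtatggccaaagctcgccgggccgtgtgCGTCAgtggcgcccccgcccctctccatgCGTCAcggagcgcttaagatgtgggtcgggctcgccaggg

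Nr4a2: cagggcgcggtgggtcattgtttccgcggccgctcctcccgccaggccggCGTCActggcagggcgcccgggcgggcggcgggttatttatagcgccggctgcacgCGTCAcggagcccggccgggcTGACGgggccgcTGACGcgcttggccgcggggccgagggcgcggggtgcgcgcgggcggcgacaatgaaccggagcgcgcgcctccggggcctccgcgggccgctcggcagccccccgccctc

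Nr4a3: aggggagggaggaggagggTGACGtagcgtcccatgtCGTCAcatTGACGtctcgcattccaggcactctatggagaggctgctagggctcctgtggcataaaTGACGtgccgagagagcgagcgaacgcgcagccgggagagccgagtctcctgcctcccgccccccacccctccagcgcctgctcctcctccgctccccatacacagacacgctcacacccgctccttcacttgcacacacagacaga

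Each of these windows held 4 TGACG cores, where 17.8% of all windows held any. The full palindrome TGACGTCA was found in none of the 11 member windows and in 1.55% of all windows. In Nr4a1 the cores lie 233 to 229, 213 to 209, 69 to 65 and 40 to 36 bases before the start, and in Nr4a2 at 200 to 196, 144 to 140, 123 to 119 and 111 to 107 bases. The response element that NR4A monomers bind, AAAGGTCA, was searched on both strands and found in no window of the members (1.34% of all windows). The EGR motif GCGNGGGCG was found before Nr4a1, Nr4a2, Klf2 and Klf4 and in 4.70% of all windows.

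The retinoid receptor genes, whose products pair with Nr4a1 and Nr4a2 proteins, rose where they could be tested. Rxra rose from 94.8 to 168 CPM (log2 fold change 0.83, adjusted p = 2.6e-08) and Rxrb from 24.5 to 38.1 CPM (0.63, adjusted p = 4.6e-05). The third, Rxrg, was too low to be tested.

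Ier2 and Ier3 are small response genes without a shared domain and moved in opposite directions. Ier2, whose product is a nuclear regulator of growth responses (chromosome 8, 87185230 to 87186751, minus strand, 1 exon), had 45.6, 52.0 and 44.1 CPM in the KMT2D WT libraries and 212, 210.1 and 219 CPM in those of KMT2D KO. The rise from 47.2 ± 4.22 to 214 ± 4.65 CPM was 4.52-fold (2.18, SE 0.07, adjusted p = 3.8e-13). Ier3, also named IEX-1, modulates apoptosis and ERK signalling and is a known target of NF-kB and p53 (chromosome 17, 35958658 to 35959856, plus strand). It had 519, 544 and 525 CPM in the KMT2D WT libraries and 371, 373 and 335 CPM in those of KMT2D KO. The fall from 529 ± 13.1 to 359.9 ± 21.2 CPM (-0.56, SE 0.05, adjusted p = 3.0e-07) was the smallest change of the 10 genes, and 51.8% of tested genes had a smaller absolute log2 fold change. The other IER genes both rose. Ier5 went from 90.2 to 196 CPM (1.12, adjusted p = 7.6e-11) and Ier5l from 28.0 to 68.3 CPM (1.29, adjusted p = 1.9e-09).

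Ier3 was the only member with a RefSeq window that held neither a CArG box nor a TGACG core in any listed start. Its 250 bases at chr17:35821463-35821712 (GRCm38.p6, plus strand) are shown for comparison with those of Egr2 and the NR4A genes, with no capitals because neither motif is present.

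Ier3: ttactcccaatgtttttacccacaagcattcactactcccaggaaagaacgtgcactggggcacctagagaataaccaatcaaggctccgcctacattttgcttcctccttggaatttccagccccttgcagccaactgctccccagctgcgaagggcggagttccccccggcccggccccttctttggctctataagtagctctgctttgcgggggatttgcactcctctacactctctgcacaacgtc

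An NF-kB motif was found 92 to 83 bases before the Ier3 start and, as 2 overlapping matches at 117 to 108 and 116 to 107 bases, before the first listed start of Egr2, which rose. Such a motif was held by 7.25% of all windows on either strand. The windows of Klf2 and Klf4 each held 1 TGACG core. Egr1, Egr3 and Ier2 had no window to search.

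Klf2 and Klf4 encode zinc finger factors of the Krüppel-like family, which bind GC-rich and CACCC sites. Klf2, a regulator of endothelial quiescence and lymphocyte trafficking that lies downstream of ERK5 and MEF2 (chromosome 8, 74842961 to 74845553, plus strand), had 13.01, 14.5 and 13.95 CPM in the KMT2D WT libraries and 23.3, 24.5 and 23.0 CPM in those of KMT2D KO. It rose 1.71-fold, from 13.8 ± 0.729 to 23.6 ± 0.816 CPM (log2 fold change 0.77, SE 0.08, adjusted p = 9.0e-07). Klf4, a factor of epithelial barrier formation and of induced pluripotency (chromosome 4, 55540009 to 55545347, minus strand), had 90.1, 101 and 85.3 CPM in the KMT2D WT libraries and 194, 196 and 194 CPM in those of KMT2D KO. It rose 2.12-fold, from 91.97 ± 7.80 to 195 ± 1.14 CPM (1.08, SE 0.06, adjusted p = 6.6e-10). With libraries scaled by total count alone, the Klf4 rise was 0.97. The chromosomes of Klf2 and Klf4 had medians of 0.21 and 0.13.

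**Figure D2:**
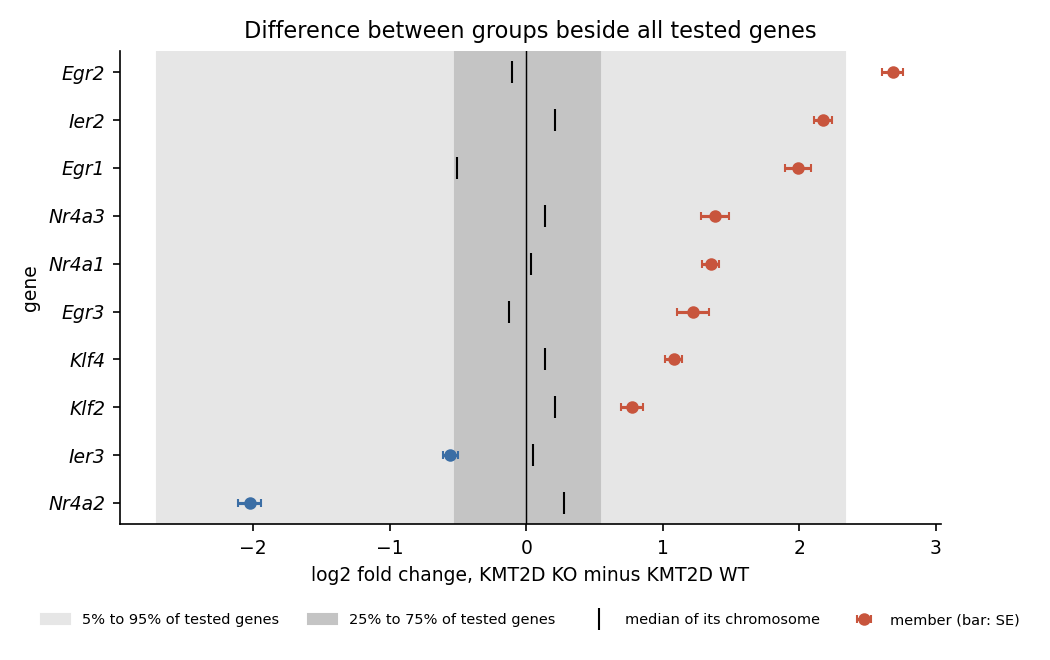
Log2 fold change of each gene, KMT2D KO minus KMT2D WT, with its standard error, beside the ranges that hold 25% to 75% and 5% to 95% of all tested genes. Upright black marks give the median of the tested genes on the same chromosome. Egr2 lies beyond the 95% point of 2.33, while Ier3, at -0.56, lies just beyond the 25% point of -0.52.

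The rest of the KLF family moved in both directions. Of 13 tested genes, 8 rose, 3 fell and 2 gave no call (median 0.30). Over all tested genes, 35.4% were called higher and 35.5% lower. The rises were led by Klf12 (2.04 to 15.5 CPM, log2 fold change 2.93), Klf8 (0.938 to 5.60 CPM, 2.58) and Klf15 (9.72 to 41.7 CPM, 2.10). Klf13 fell from 62.0 to 38.4 CPM (-0.69), Klf7 from 19.2 to 12.3 CPM (-0.64) and Klf3 from 96.5 to 77.1 CPM (-0.32). Of 3 tested genes known to be driven by Klf2 or Klf4 in other cells, 1 was higher and 2 lower. These are too few to set against the shares over all tested genes. S1pr1, the receptor for sphingosine-1-phosphate, rose from 86.3 to 657 CPM (2.93, adjusted p = 1.3e-15), and the thrombomodulin gene Thbd fell from 592 to 323 CPM (-0.87, adjusted p = 2.9e-10). The cell cycle inhibitor gene Cdkn1a fell from 187 to 167 CPM (-0.16, adjusted p = 0.026), with overlapping libraries. Its call was lost without any of 5 libraries, KMT2D WT replicates 2 and 3 and KMT2D KO replicates 1, 2 and 3 (adjusted p of 0.057 to 0.12).

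Levels of different genes were compared per kilobase of exon, as CPM per kb. In KMT2D WT the order from the top was Ier3 (486 CPM per kb), Nr4a1 (90.6), Egr1 (64.3), Nr4a2 (36.5), Ier2 (31.0), Klf4 (30.2), Klf2 (7.60), Egr3 (4.25), Egr2 (2.78) and Nr4a3 (1.26). The ranges of Nr4a2 and Ier2 and of Ier2 and Klf4 overlapped across the KMT2D WT libraries, while the other neighbours did not overlap. Within each of these libraries the order was still Nr4a2, Ier2 and Klf4. They had 32.4, 30.0 and 29.6 CPM per kb in replicate 1, 36.0, 34.2 and 33.0 in replicate 2, and 41.0, 29.0 and 28.0 in replicate 3. These differences were not tested. In KMT2D KO the order was Ier3 (330.2 CPM per kb), Egr1 (255), Nr4a1 (231), Ier2 (140.4), Klf4 (64.0), Egr2 (17.9), Klf2 (13.003), Egr3 (9.91), Nr4a2 (8.94) and Nr4a3 (3.29). No neighbours overlapped there. Nr4a2 went from the fourth place to the ninth, Egr2 from the ninth to the sixth, and Ier3 kept the top place despite its fall. In KMT2D KO, 98.8% of tested genes had a lower level per kb than Ier3, and 98.4% a lower level than Egr1.

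The make-up of the families differed accordingly, as shares of the summed level per kb. Egr1 held 89.3%, 90.2% and 90.7% of the EGR sum in the KMT2D WT libraries and 90.1%, 90.2% and 90.3% in the KMT2D KO libraries, so its share was alike in both groups while the sum rose from 71.3 ± 12.2 to 283 ± 8.39 CPM per kb. Egr2 and Egr3 changed places behind it, from 4.01% ± 0.947 and 5.94% ± 0.331 to 6.32% ± 0.103 and 3.50% ± 0.0931 (SD, n = 3). In the NR4A family, Nr4a2 held 28.2%, 27.6% and 29.4% in KMT2D WT and 3.94%, 3.57% and 3.49% in KMT2D KO. Nr4a1 went from 70.6% ± 0.927 to 94.98% ± 0.266, and the NR4A sum from 128 ± 12.3 to 244 ± 3.16 CPM per kb. The NR4A message thus became almost wholly that of Nr4a1 in KMT2D KO.

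**Figure D3:**
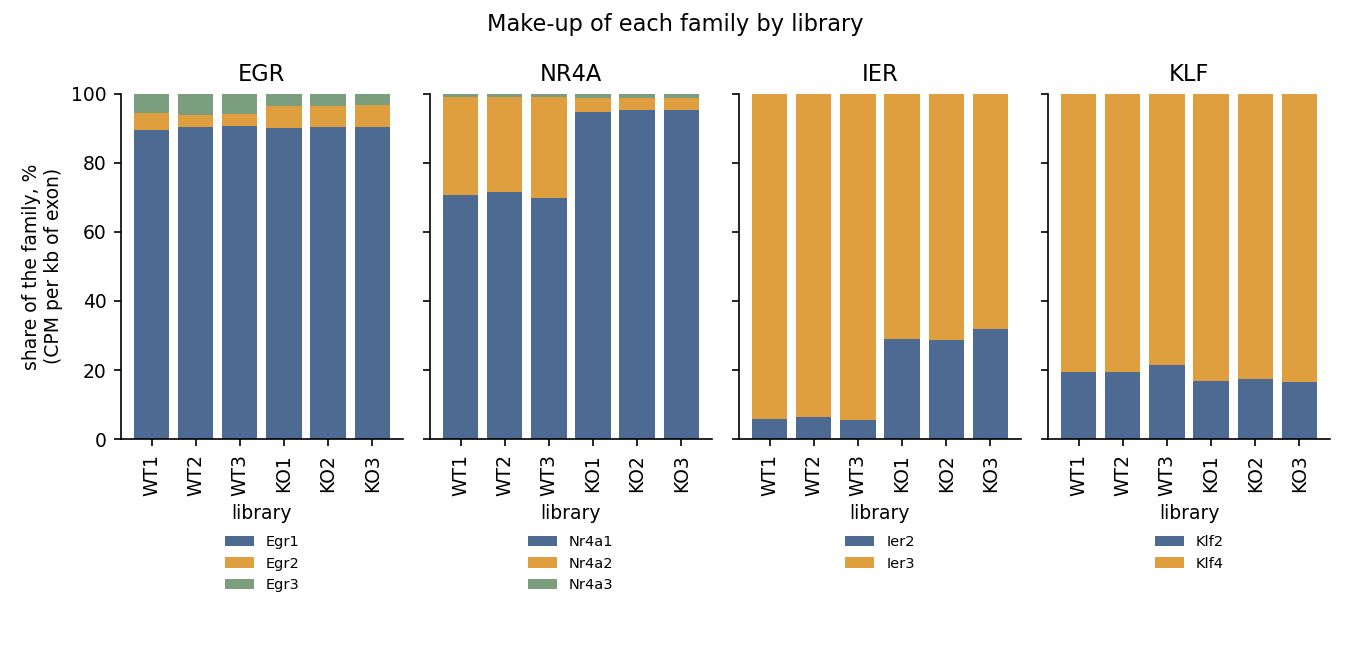
Share of each gene in the summed level of its family (CPM per kb of exon), in percent, for each library of KMT2D WT (WT1 to WT3) and KMT2D KO (KO1 to KO3). Nr4a2 shrinks from at least 27.6% to at most 3.94% of the NR4A sum, and Ier2 grows from at most 6.41% to at least 28.8% of the IER sum.

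In the IER pair the summed level moved less than either gene, from 517 ± 14.6 to 471 ± 16.4 CPM per kb, with the rise of Ier2 set against the fall of the more abundant Ier3. Ier2 held 6.002% ± 0.378 of it in KMT2D WT and 29.9% ± 1.72 in KMT2D KO. Klf4 held 79.9% ± 1.19 of the KLF pair in KMT2D WT and 83.1% ± 0.401 in KMT2D KO. These sums and shares were not tested.

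The genes also differed in how steady they were among libraries of a group. The coefficient of variation of the 10 genes had a median of 8.996% in KMT2D WT (2.48% for Ier3 to 20.7% for Egr3) and 3.21% in KMT2D KO (0.586% for Klf4 to 7.76% for Nr4a2). The same median over all tested genes that averaged 1 CPM or more was 7.76% for KMT2D WT and 4.55% for KMT2D KO. In KMT2D WT, replicate 3 was the highest library for 5 genes (Egr1, Egr3, Nr4a1, Nr4a2 and Nr4a3), beside 36.0% of all tested genes. Replicate 1 was the lowest for 6 genes (Egr1, Egr3, Nr4a1, Nr4a2, Ier3 and Klf2), beside 31.0% of all tested genes. The spread from the lowest to the highest KMT2D WT library was 1.44-fold for Egr1 and 1.503-fold for Egr3, against group differences of 3.98-fold and 2.34-fold. In KMT2D KO, replicate 1 was the highest library for 6 genes, namely the 3 EGR and the 3 NR4A genes, beside 29.6% of all tested genes. Whether anything common to a library underlies these orders was not tested.

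**Figure D4:**
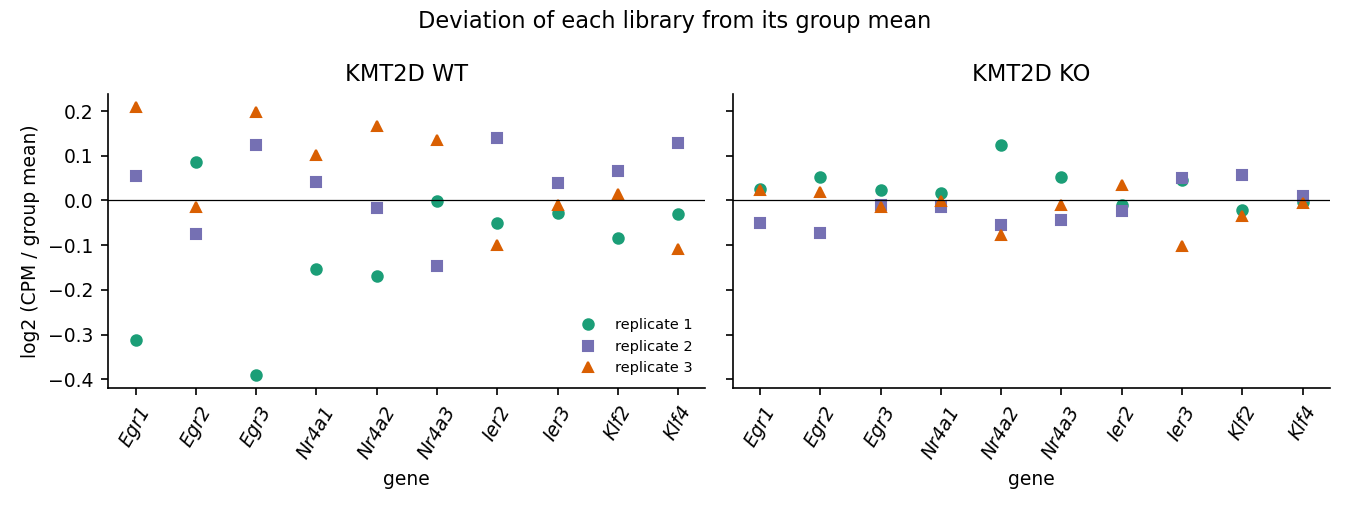
Log2 ratio of each library's CPM to the mean of its group, for KMT2D WT (left) and KMT2D KO (right). In KMT2D WT, replicate 1 lies low for Egr1, Egr3, Nr4a1 and Nr4a2, and the KMT2D KO libraries lie closer together for 9 of the 10 genes, the exception being Ier3.

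Of 27 other genes of the rapid response, among them AP-1 factors and feedback phosphatases, 18 rose, 4 fell and 5 gave no call. Their median log2 fold change was 0.97, and over all tested genes 35.4% were called higher and 35.5% lower. Ier5 is counted here as well as with the other IER genes. The feedback phosphatase genes split, as Dusp1 rose (1.38) and Dusp5 fell (-0.55), while Dusp2 was not called. Fosb rose from 14.3 ± 0.850 to 916 ± 9.69 CPM (5.99, adjusted p = 2.0e-17) and Fos from 36.5 ± 4.03 to 1282 ± 11.9 CPM (5.13, adjusted p = 2.4e-16), both by more than any of the 10 genes. Zfp36, whose protein speeds the decay of AU-rich messages, rose from 63.0 to 533 CPM (3.08, adjusted p = 4.8e-15). The falls were led by Maff, a small MAF factor (109 to 20.8 CPM, -2.38, adjusted p = 1.9e-13), followed by the GTPase genes Gem (21.7 to 11.3 CPM, -0.94) and Rhob (193 to 109 CPM, -0.83). Nr4a2 and Ier3 were thus not alone in falling. Of 6 genes whose products bind AU-rich messages, Zfp36, Zfp36l1 (89.8 to 338 CPM, 1.91) and Zfp36l2 (248 to 405 CPM, 0.71) rose and 3 were not called.

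The lists of factors that act upstream of the immediate-early promoters had medians between -0.37 and 0.29. Their calls stand beside shares of 35.4% higher and 35.5% lower over all tested genes (median 0.004). Of 6 genes for SRF and its partners, 4 rose and 2 fell, with a median of 0.29 and no change above 1 in size. Srf itself rose from 60.3 ± 8.59 to 83.8 ± 0.957 CPM (0.48, adjusted p = 0.00010), Elk1 from 24.96 to 36.1 CPM (0.53) and the coactivator gene Mkl1 from 80.9 to 103 CPM (0.34, a gene that overlaps Sgsm3). Elk3 fell from 174 to 104 CPM (-0.75) and Mkl2 from 50.1 to 32.3 CPM (-0.63). Of 8 genes for CREB, its relatives and coactivators, 2 rose, 3 fell and 3 gave no call (median -0.02). Crem, which makes both activators and the repressor ICER, fell from 20.8 to 6.71 CPM (-1.64, adjusted p = 8.5e-10), and Creb1 rose from 53.5 to 75.1 CPM (0.49). Crtc3 rose from 25.4 to 32.2 CPM (0.35), Atf1 fell from 35.9 to 30.8 CPM (-0.22) and Crebbp fell from 106 to 88.4 CPM (-0.26), with overlapping libraries. Atf1 was not called without KMT2D KO replicate 3 (adjusted p = 0.085). Crebbp was not called without KMT2D WT replicate 2 or 3 or without KMT2D KO replicate 1 or 2 (0.059 to 0.10).

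In the MEK5, ERK5 and MEF2 branch that leads to Klf2, Klf4 and Nr4a1, 2 of 7 tested genes rose, 1 fell and 4 gave no call (median -0.01). Mef2c rose from 9.37 ± 0.777 to 71.3 ± 3.10 CPM (2.93, adjusted p = 9.8e-14). The ERK5 gene Mapk7 rose from 31.8 to 38.1 CPM (0.26), and Map3k2 fell from 93.8 to 81.9 CPM (-0.20). Mapk7 was not called with scaling by total count (0.15) or without KMT2D KO replicate 3 (0.21), and Map3k2 not without KMT2D KO replicate 1 (-0.19) or 2 (-0.14). Of 9 genes for ERK, RSK and MSK kinases and their MEK activators, 2 rose, 6 fell and 1 gave no call (median -0.37). Messages of these kinases do not give their activity. Rps6ka1 rose from 5.13 to 18.5 CPM (1.85), Rps6ka2 fell from 38.3 to 16.7 CPM (-1.20), Rps6ka5 fell from 5.93 to 3.62 CPM (-0.71) and the ERK1 gene Mapk3 fell from 145 to 95.4 CPM (-0.61). Rps6ka3 rose from 35.7 to 41.0 CPM (0.20), a call lost with scaling by total count (0.092) and when KMT2D WT replicate 2 (0.15) or KMT2D KO replicate 1 (0.16) was left out.

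**Figure D5:**
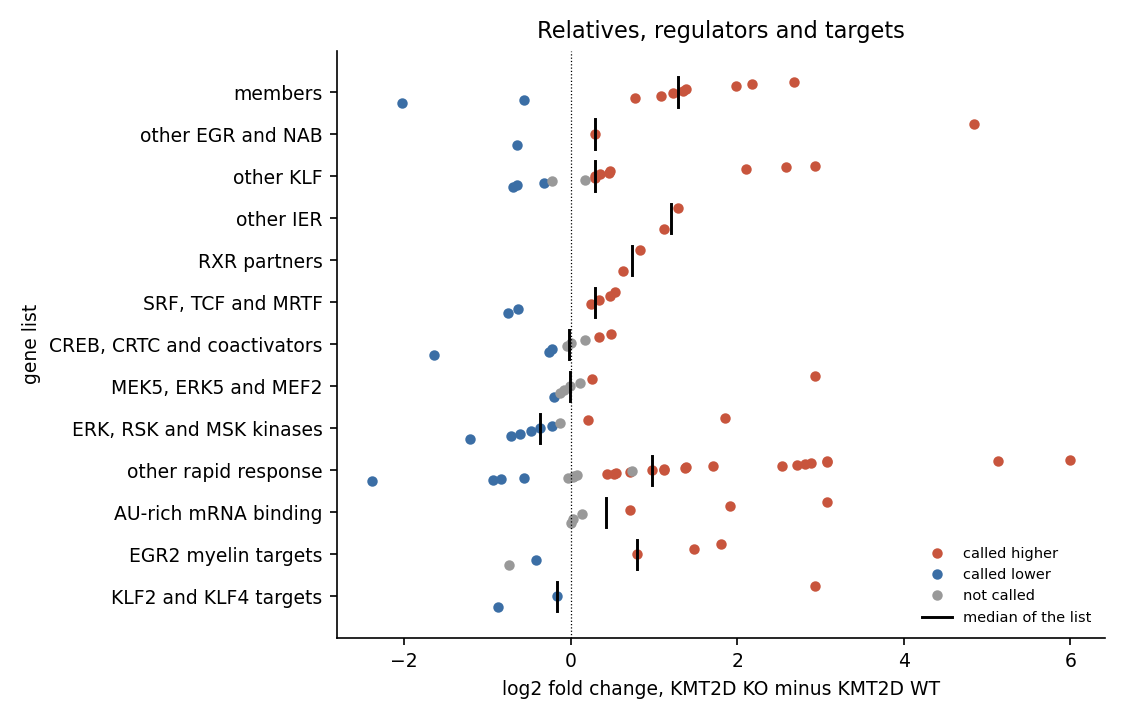
Log2 fold change (KMT2D KO minus KMT2D WT) of each tested gene in the 10 members and in 12 lists of their relatives, regulators and targets, 1 point a gene, coloured by the edgeR call, with the median of each list as a black line. Medians of 0.97 to 1.29 are found for the members, the other IER genes and the other rapid response genes, with Ier5 in both of the latter. The medians of the SRF, CREB, MEF2 and ERK lists lie between -0.37 and 0.29. Those of the remaining lists run from -0.16 (KLF2 and KLF4 targets) to 0.80 (EGR2 myelin targets). The members and all lists were chosen with earlier results of these data known.

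The labelled cell type and other possible cell types were checked with 7 marker lists. The calls in these lists stand beside shares of 35.4% higher and 35.5% lower over all tested genes. Of 8 melanocyte markers, 6 had means under 1 CPM in both groups, while Mitf had 15.4 and 53.2 CPM. Among the 6 were Tyr, Tyrp1 and Dct, which make pigment. Their group means were at most 0.0765 CPM, and their highest single library had 0.163 CPM (Tyrp1, KMT2D KO replicate 2). The melanocyte markers summed to 15.9 to 17.3 CPM in the KMT2D WT libraries and 50.3 to 59.0 CPM in the KMT2D KO libraries. Fibroblast markers, of which 6 of 8 rose and 2 fell, summed to 5530.1 to 5730 CPM in the KMT2D WT libraries and 21240 to 22240 CPM in the KMT2D KO libraries. Most of that sum was Col1a1, Col1a2 and Col3a1, while Dpt fell from 44.8 to 0.839 CPM and Lum from 1.30 to 0.527 CPM. The sum moved in the same direction as 8 of the 10 genes. The part of the fibroblast markers in these results was not tested.

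Egr2 marks Schwann cells, Klf2 endothelium, Klf4 keratinocytes and Nr4a1 monocytes, so those lists were set beside them. Of 9 tested Schwann markers 3 rose and 4 fell, with the largest fall in S100b (4.47 to 0.181 CPM). The defining gene Sox10 had 0.444 and 0.300 CPM. The sum of the Schwann markers, most of it Pmp22, was 96.0 to 105 CPM in the KMT2D WT libraries and 160.1 to 167 CPM in the KMT2D KO libraries. All 8 endothelial markers had means under 1 CPM in both groups, with sums of 1.34 to 2.55 CPM and 0.564 to 1.06 CPM. Immune markers were lower in KMT2D KO (5 of 6 tested, sums of 12.0 to 20.7 and 4.47 to 5.45 CPM). Of 7 keratinocyte markers, 2 rose, 1 fell and 4 gave no call, with sums of 19.5 to 22.9 CPM in the KMT2D WT libraries and 70.45 to 77.3 CPM in the KMT2D KO libraries. Most of that rise was Perp (7.69 to 57.6 CPM) and Trp63 (0.784 to 10.2 CPM), Dsp fell from 6.25 to 1.06 CPM, and the keratin genes Krt5, Krt14, Krt1 and Krt10 gave no call. Cerebellar markers summed to at most 1.55 CPM in a KMT2D WT library and 5.02 CPM in a KMT2D KO library. No marker of these lists was at 0 in every library.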

How the data were processed

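RNA sequencing libraries of 3 KMT2D WT and 3 KMT2D KO samples were analysed from the deposited values, which are raw counts of fragments per gene from featureCounts 1.5.2, which the authors ran on the exons of an mm9 annotation, per the file headers. The command in the headers set no strand option, so both strands were counted, and no option for multimapping or overlapping fragments. STAR and HTSeq are named in the submitters' processing notes without a role.

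Counts were tested with edgeR 4.0.16 (R 4.3.3): TMM scaling, filterByExpr by group, a group-only model, the quasi-likelihood F test and Benjamini-Hochberg adjustment over 14579 genes, called under 0.05. The standard error is the log2 fold change divided by the square root of F. The script was tested on simulated data. Intervals cover counting error only. The members and all lists were chosen with earlier results of these data known. Named genes are the 10 members, Kmt2d and, from each of 12 lists, up to 3 called genes in each direction with the largest change and at least 1 CPM. The Dusp genes were named outside this rule, after their values were seen. Alternatives were RLE factors, total count scaling, DESeq2 1.42.0, limma voom 3.58.1, 2 other low-count filters, robust empirical Bayes, the replicate block, glmTreat against a log2 fold change of 1, and leaving out each library. Promoter windows came from RefSeq (GRCm38.p6), which matched 7 of the 10 members by symbol. Searches covered the 250 bases before each start on both strands, and a TGACG match may overlap an EGR or TGACGTCA match.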

Additional observations from a re-analysis of the deposited data

How the results depend on the processing

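The counts of 8 members higher and 2 lower were the same under 14 of 15 alternatives, among them each omission of a library (range 8 to 8 and 2 to 2). The exception was glmTreat, which tests for a change beyond 1 on the log2 scale and called 5 members higher and 1 lower. Under it Egr3 (adjusted p = 0.0504), Klf4 (0.15), Klf2 (1) and Ier3 (1) were not called. It called 2823 of all tested genes (19.4%), and 21 genes higher and 3 lower in the 12 lists of relatives, regulators and targets, against 47 and 23 of 89 in the reported test. The other alternatives gave 43 to 50 higher and 21 to 27 lower. No log2 fold change of a member or other named gene was reversed under any alternative run. Scaling by total count moved the median of all genes to -0.11 and left 6 members higher by over 1, since Klf4 came to 0.97. Without length scaling, Egr1 held 88.6% of the EGR sum in KMT2D WT and 89.4% in KMT2D KO, and Nr4a2 held 34.5% and 4.82% of the NR4A sum. The construction of that scale, in which long messages weigh more, sets its difference from the shares per kb. The share of Nr4a2 was lower in KMT2D KO on both scales, with 28.4% in KMT2D WT and 3.67% in KMT2D KO per kb.

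No clear pairing by replicate number was seen. Same-numbered libraries had correlations of their deviations of 0.006, 0.067 and 0.047. Replicates 2 and 3 correlated best with their own number, while KMT2D WT replicate 1 correlated best with KMT2D KO replicate 2 (0.035). These values cannot show if samples of the same number were handled together. With the replicate block, 8 members were called higher and 2 lower, and 10368 genes in all against 10345. Depth did not limit the members, but Egr4, with 1 count in KMT2D WT, has no firm fold.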
